A study of Schmidtea mediterranea with 36 samples.

Results

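The transcripts *pepck*, *lactb*, *rapunzel-1* and tr5_12233 had higher levels in *alx-3(RNAi)* planarians than in *control(RNAi)* ones at 1 or more time points. They are 4 of 71232 transcripts in the tables and 4 of the 271 whose ID holds a gene name. Each name occurs in 1 row, and that row was present and tested at all 6 time points. Their IDs are Smed-pepck_SmedASXL_012615, Smed-lactb_SmedASXL_010631, Smed-rapunzel-1_SmedASXL_004544 and Smed-tr5_12233_SmedASXL_010139. The members were chosen by their difference between *alx-3(RNAi)* and *control(RNAi)* in these same libraries, to set rises seen only in late tail fragments beside rises also seen early or in intact animals. All 6 knockdown contrasts therefore count as used for the choice, and the members' values in them are given as a description with no p.

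The animals were asexual *Schmidtea mediterranea*, a flatworm that rebuilds missing body parts from stem cells called neoblasts. All of them were of strain CIW4 and had received 9 feeds of double-stranded RNA, against *alx-3* in *alx-3(RNAi)* and against *GFP*, a gene the worm does not have, in *control(RNAi)*. Amputation followed 4 days after the last feed, and RNA was taken from tail fragments cut behind the pharynx from 0.5 to 72 hours post amputation (HPA), at 5 times (0.5 and 6 HPA, then 24, 48 and 72 HPA), or from intact whole animals on the same schedule of feeds. Each of the 12 groups had 3 libraries, stated to be biological triplicates, which makes 36 libraries. RNAi by feeding reaches the whole animal, so a transcript can differ in cells that do not express *alx-3*. In bulk RNA, fewer cells of a type and less RNA per cell cannot be told apart.

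*pepck* is named after phosphoenolpyruvate carboxykinase, which turns oxaloacetate into phosphoenolpyruvate and is the committed enzyme of gluconeogenesis, the making of glucose from amino acids and other non-sugar sources. In vertebrates this enzyme is set mainly by the amount of its transcript, which falls after feeding and rises in fasting. *lactb* is named after a protein known from mammals that resembles bacterial beta-lactamases and lies between the membranes of mitochondria. *rapunzel-1* takes its name from a zebrafish gene known from a mutant with overgrown fins. tr5_12233 carries only a transcript number, and no role is given to it here.

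Values are normalized counts, that is, reads per transcript after the authors scaled the libraries of a time point to each other. They are not divided by transcript length, so levels are not compared between genes. The targeted transcript *alx-3* (SmedASXL_006490) was below all controls in all knockdown libraries of every time point, and its knockdown mean was 23.6% to 40.8% of the control mean. Library sums ran from 50.9 to 70.9 M (median 58.5 M). Ribosomal RNA transcripts made up 11.5% to 12.9% of a control library and 12.6% to 14.8% of an *alx-3(RNAi)* library. Within a time point the *alx-3(RNAi)* shares were above all controls at 6, 24, 48 and 72 HPA, with 14.1% to 14.6% against 12% to 12.3% at 48 HPA. The groups met at 12.9% at 0.5 HPA and overlapped in intact animals. The part of these transcripts in the results below was not tested.

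Differences are log2 fold changes on the log2(normalized count + 1) scale, with the standard error (SE) from limma fitted to all transcripts of a time point, and "called" means an adjusted p (Benjamini-Hochberg) below 0.05. Of the 4 members, 1 was called higher at 0.5 HPA (*pepck*), where 1.24% of all 33258 transcripts tested were called higher. The count was 1 (*pepck*) at 6 HPA against 1.72% of all transcripts, 2 (*rapunzel-1* and *pepck*) at 24 HPA against 4.28%, and 2 (*lactb* and tr5_12233) at 48 HPA against 2.36%. All 4 were called higher at 72 HPA against 10.5%, and 1 (*pepck*) in intact animals against 0.384%. Nothing is read from these counts, since the same contrasts chose the members. For a member, here and below, "called" only marks where the fit put it and is no evidence of a difference. On the values as deposited, every *alx-3(RNAi)* library lay above every control for 2, 1, 2, 3, 4 and 2 members in the order of time points from 0.5 HPA to intact animals. The shares of all transcripts of which this was true were 13.2%, 14.5%, 13.5%, 13.0%, 19.3% and 13.0%. No member was called lower or had all its *alx-3(RNAi)* libraries below the controls.

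The scaling sets how far all transcripts lean to one direction. When library sums were set equal, here named rescaling, the median log2 fold change of all transcripts moved down by 0.09, 0.14, 0.08, 0.16, 0.20 and 0.08 in the same order of time points, from medians of 0.00 to 0.01. Among the called transcripts, the share that was higher was 60.9%, 73.5%, 58.7%, 68.1%, 80.0% and 43.4% as deposited, and 20.4%, 31.0%, 31.5%, 24.3%, 21.1% and 27.9% after rescaling. With quantile normalization these shares were 45.1%, 51.8%, 54.3%, 63.2%, 52.2% and 46.0%. Each member is therefore also given on the rescaled values.

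**Figure D1:**
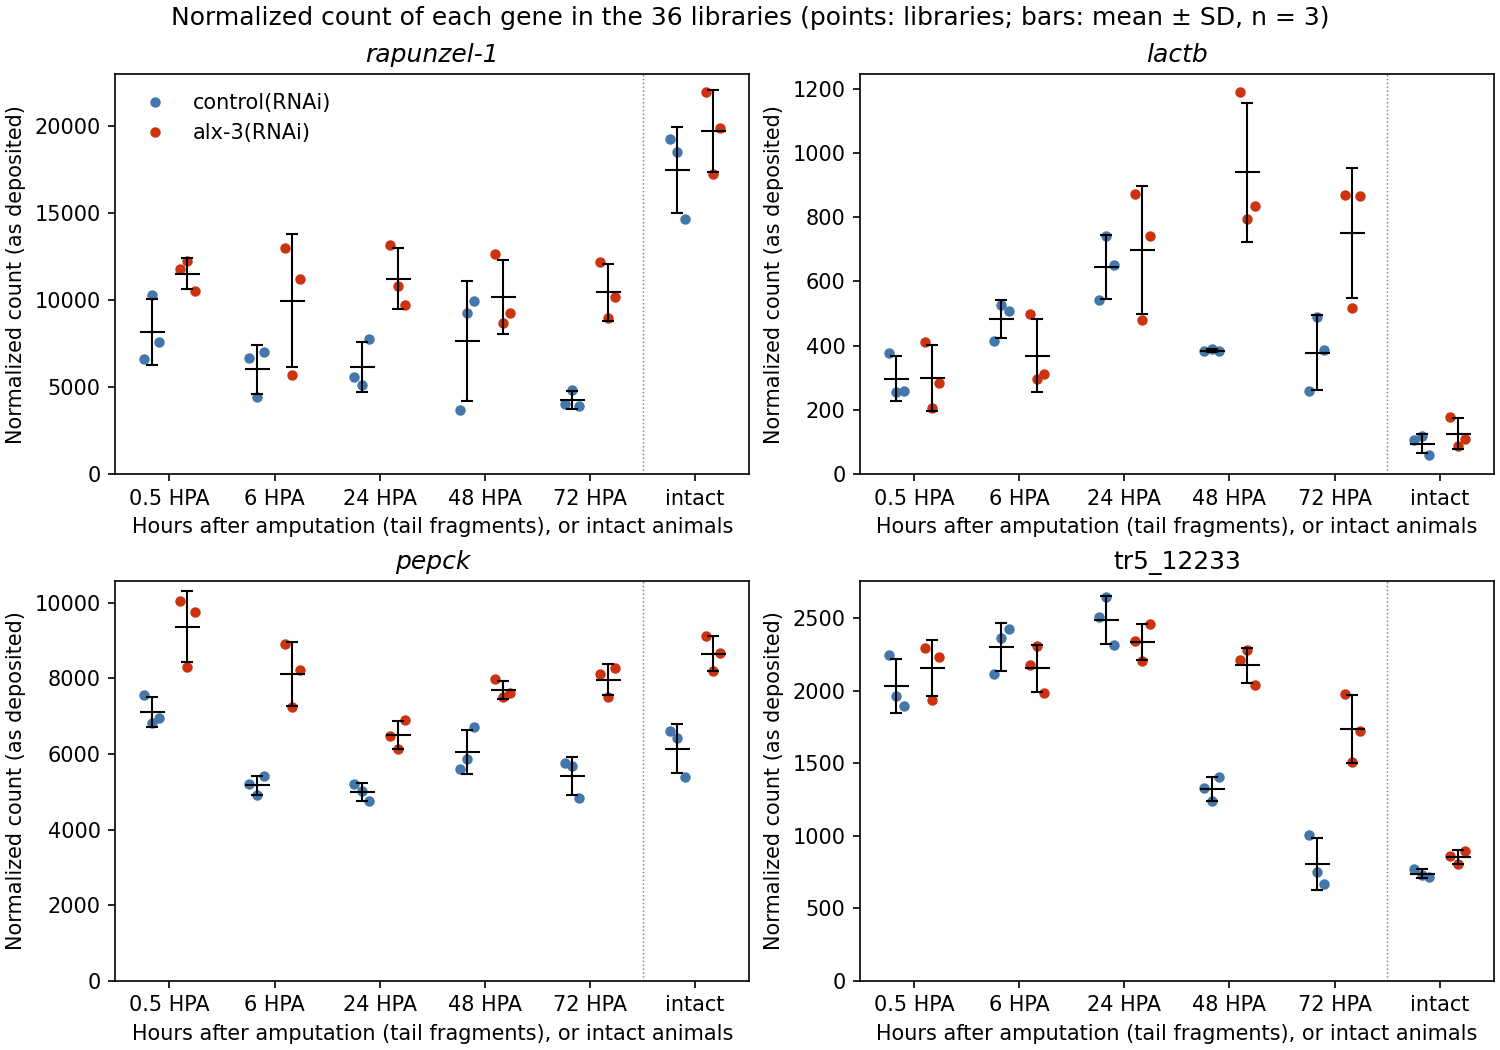
Normalized count, as deposited, of *rapunzel-1*, *lactb*, *pepck* and tr5_12233 (vertical axes, from 0) at each time point (horizontal axis), with 1 point per library, blue for *control(RNAi)* and red for *alx-3(RNAi)*, and bars for the mean ± SD of 3 libraries. The *alx-3(RNAi)* points of *pepck* lie above the controls at all 6 time points, whereas those of tr5_12233 in tails all lie above the controls only at 48 and 72 HPA. Each time point was scaled on its own.

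On the values as deposited, *pepck* was the member whose groups stood apart at every time point. At 0.5 HPA its normalized counts in replicates 1, 2 and 3 were 7565, 6815 and 6945 in *control(RNAi)* and 10037, 8311 and 9768 in *alx-3(RNAi)*. At 6 HPA they were 5207, 4914 and 5413 in controls and 8910, 7235 and 8235 after knockdown. The lowest knockdown library exceeded the highest control by a ratio of 1.10 at the first of these times and 1.34 at the second. At 24 HPA the controls had 5207, 5018 and 4751, and the *alx-3(RNAi)* libraries 6483, 6145 and 6892. At 48 HPA the values were 5603, 5866 and 6705 in controls and 7979, 7521 and 7604 after knockdown. The distance between the groups was smaller at 24 and 48 HPA than at 6 HPA, with ratios of the nearest libraries of 1.18 and 1.12. At 72 HPA the controls had 5750, 5683 and 4837, and the knockdown libraries 8108, 7497 and 8283. In intact animals the values were 6616, 6420 and 5397 in controls and 9112, 8185 and 8664 after knockdown, so the groups were also apart without amputation.

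The group means of *pepck* (± SD, n = 3) were 5178 ± 251 in controls and 8127 ± 843 after knockdown at 6 HPA, a ratio of 1.57. The corresponding ratios were 1.32 at 0.5 HPA, 1.3 at 24 HPA, 1.27 at 48 HPA, 1.47 at 72 HPA and 1.41 in intact animals. As log2 fold changes these were 0.40 (SE 0.0777), 0.65 (SE 0.0819), 0.38 (SE 0.0583), 0.35 (SE 0.0934), 0.56 (SE 0.0729) and 0.50 (SE 0.0922) in the order of time points from 0.5 HPA to intact animals. They lay at percentiles 88.0 to 97.3 of all transcripts tested. After rescaling they were 0.30, 0.51, 0.30, 0.19, 0.35 and 0.41, all still above 0. The groups then overlapped at 0.5 HPA. In parts per 1000000 of the library's sum, control replicate 1 was at 149 and *alx-3(RNAi)* replicate 2 at 146. The call at 0.5 HPA ended with rescaling, with quantile normalization and without control replicate 2 (0.37) or 3 (0.38) or *alx-3(RNAi)* replicate 1 (0.34) or 3 (0.36). The call in intact animals ended without any of the 3 controls or without *alx-3(RNAi)* replicate 1 or 3, where the value stayed between 0.41 and 0.55. At 48 HPA *pepck* was called in 5 of 13 alternatives, namely a pseudocount of 5, rescaling (0.19), quantile normalization (0.25), without control replicate 3 (0.43) and 1 fit over all 36 libraries.

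*lactb* differed late. At 0.5 HPA its normalized counts in replicates 1, 2 and 3 were 378, 256 and 258 in controls, against 410, 206 and 283 in *alx-3(RNAi)*. At 6 HPA they were 414, 526 and 508 in controls and 499, 296 and 312 after knockdown. At 24 HPA they were 541, 742 and 651 in controls and 872, 481 and 742 after knockdown. The groups overlapped at these 3 times, and at 6 HPA the knockdown mean was the lower, at 369 ± 113 against 483 ± 60.4. At 48 HPA the controls had 382, 389 and 382, and the *alx-3(RNAi)* libraries 1189, 795 and 835. At 72 HPA the controls had 258, 490 and 387, and the knockdown libraries 869, 516 and 865. The lowest knockdown library was 2.04 times the highest control at 48 HPA but only 1.05 times it at 72 HPA, where *alx-3(RNAi)* replicate 2 came close to control replicate 2. In parts per 1000000 of the library's sum these 2 libraries were at 8.56 and 8.63, so the groups overlapped at 72 HPA on that scale. In intact animals *lactb* was low, with 105, 118 and 60.6 in controls and 179, 86.3 and 110 after knockdown, and the groups overlapped.

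The *lactb* mean at 48 HPA was 384 ± 4.05 in controls and 939 ± 217 after knockdown, a ratio of 2.44, and at 72 HPA 378 ± 116 and 750 ± 202, a ratio of 1.98. The log2 fold changes there were 1.26 (SE 0.144) and 0.99 (SE 0.204), at percentiles 99.6 and 99.2 of all transcripts, and 1.10 and 0.79 on the rescaled values. At 0.5, 6 and 24 HPA and in intact animals they were −0.02 (SE 0.215), −0.42 (SE 0.177), 0.08 (SE 0.183) and 0.39 (SE 0.287). The sign was not fixed at 0.5 and 24 HPA: without *alx-3(RNAi)* replicate 2 the values were 0.22 and 0.33, and without replicate 1 they were −0.28 and −0.10. After rescaling the values at 0.5, 6 and 24 HPA were −0.12, −0.56 and 0.00. At 6 HPA leaving out 1 library gave −0.66 to −0.28, and without *alx-3(RNAi)* replicate 1 (−0.66) *lactb* was called lower. In intact animals the range was 0.10 to 0.62, the lowest without control replicate 3, and without *alx-3(RNAi)* replicate 2 (0.62) it was called higher. *lactb* had the fewest counts of the 4 members, and a read was worth about 0.859 to 1.28 normalized counts, so its values carry the largest counting error.

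*rapunzel-1* varied widely between libraries of a group, with an SD of up to 45.2% of the mean (controls at 48 HPA). At 0.5 HPA its normalized counts in replicates 1, 2 and 3 were 6612, 10279 and 7589 in controls, against 11771, 12262 and 10530 in *alx-3(RNAi)*. At 6 HPA they were 6659, 4414 and 7024 in controls and 13000, 5685 and 11247 after knockdown. The groups touched at 0.5 HPA, with a ratio of the nearest libraries of 1.02, and overlapped at 6 HPA, where *alx-3(RNAi)* replicate 2 fell within the control range. At 24 HPA the controls had 5574, 5121 and 7785, and the knockdown libraries 13176, 10830 and 9745. At 48 HPA the controls had 3673, 9270 and 9962, and the knockdown libraries 12643, 8673 and 9252. Control replicate 1 at 48 HPA was far below the other controls, which lay among the *alx-3(RNAi)* libraries. At 72 HPA the controls had 4032, 4852 and 3902, and the knockdown libraries 12199, 8952 and 10191. This was the clearest separation of the gene, the lowest knockdown library being 1.85 times the highest control. In intact animals the values were 19304, 18534 and 14687 in controls and 21986, 17271 and 19897 after knockdown, and the groups overlapped.

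The *rapunzel-1* mean at 72 HPA was 4262 ± 515 in controls and 10447 ± 1639 after knockdown, a ratio of 2.45. The log2 fold changes were 0.52 (SE 0.124), 0.67 (SE 0.250), 0.88 (SE 0.140), 0.53 (SE 0.260), 1.29 (SE 0.0992) and 0.17 (SE 0.121) in the order of time points from 0.5 HPA to intact animals. On the rescaled values they were 0.42, 0.53, 0.80, 0.37, 1.08 and 0.09. At 48 HPA the value was 0.06 without control replicate 1 and 0.78 without control replicate 3. At 6 HPA it was 1.03 without *alx-3(RNAi)* replicate 2, where it was called, and 0.44 without replicate 1. Without control replicate 2 the value at 0.5 HPA was 0.70 and was called. In intact animals leaving out 1 library gave 0.05 (without control replicate 3) to 0.27 (without *alx-3(RNAi)* replicate 2), and none of these was called.

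tr5_12233 differed late, with an SD of 4.1% to 9.11% of the mean in each group except at 72 HPA, where it was 21.9% in controls and 13.6% after knockdown. At 0.5 HPA its normalized counts in replicates 1, 2 and 3 were 2243, 1964 and 1892 in controls, against 2297, 1934 and 2232 in *alx-3(RNAi)*. At 6 HPA they were 2116, 2366 and 2423 in controls and 2176, 2305 and 1983 after knockdown. At 24 HPA they were 2508, 2644 and 2314 in controls and 2345, 2206 and 2458 after knockdown. The groups overlapped at these 3 times. At 48 HPA the controls had 1326, 1242 and 1407, and the knockdown libraries 2208, 2278 and 2041. At 72 HPA the controls had 1004, 747 and 666, and the knockdown libraries 1977, 1506 and 1719. The groups were then apart by ratios of the nearest libraries of 1.45 and 1.5. In parts per 1000000 of the library's sum, the controls at 48 and 72 HPA were below all earlier tail libraries. The 48 HPA knockdown libraries were at 31.1, 35.3 and 31.2 on that scale. The lowest earlier tail library was at 32.5 (*alx-3(RNAi)* replicate 3 at 6 HPA), so they lay partly below the earlier range. In intact animals the values were 772, 730 and 713 in controls and 858, 805 and 898 after knockdown, a separation by a ratio of 1.04. In parts per 1000000 of the library's sum, the highest control and the lowest knockdown library were both at 13.4.

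The tr5_12233 mean at 72 HPA was 806 ± 177 in controls and 1734 ± 236 after knockdown, a ratio of 2.15, and at 48 HPA 1325 ± 82.7 and 2176 ± 122, a ratio of 1.64. The log2 fold changes were 0.08 (SE 0.0877), −0.10 (SE 0.0832), −0.09 (SE 0.0658), 0.72 (SE 0.100), 1.12 (SE 0.127) and 0.21 (SE 0.0838) in the order of time points from 0.5 HPA to intact animals. On the rescaled values they were −0.01, −0.24, −0.17, 0.55, 0.91 and 0.12, so that the sign at 0.5 HPA turned.

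**Figure D2:**
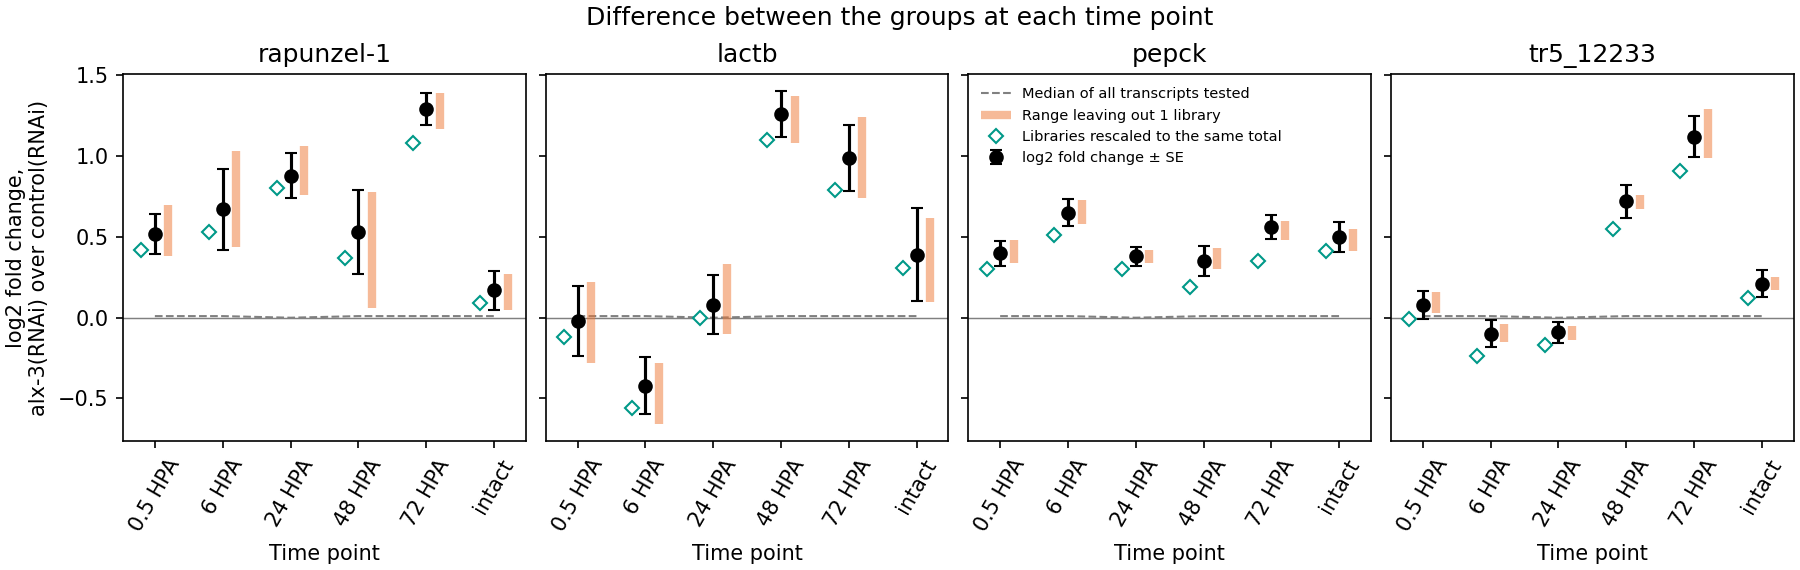
Knockdown effect as log2 fold change against the controls (vertical axis) for each gene and time point (horizontal axis), as black points ± SE over 3 libraries per group, with open diamonds for the rescaled values, orange bars for the range when 1 library was left out, and a dashed line for the median of all transcripts tested. *pepck* stays between 0.35 and 0.65, *lactb* and tr5_12233 are at 0.08 or below at 0.5 to 24 HPA and above 0.7 at 48 and 72 HPA, and the bar of *rapunzel-1* at 48 HPA reaches down to 0.06.

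The members also differed in how their level differed between time points within a group. For this the normalized count was expressed in parts per 1000000 of the library's sum (ppm), and the levels are a description with no test, because the time points were scaled separately. Intact animals are whole bodies and the others are tail fragments. Between them, body region and the response to amputation cannot be told apart. In controls, tr5_12233 was highest at 24 HPA (mean 45.2 ppm), followed by 6 HPA (40.8), 0.5 HPA (37.9), 48 HPA (22.2), 72 HPA (14.5) and intact animals (12.9). The libraries of neighbours in this order overlapped for 6 and 0.5 HPA and for 72 HPA and intact animals, and were apart for the others. After knockdown the order was 24 HPA (40.0 ppm), 0.5 HPA (37.4), 6 HPA (34.7), 48 HPA (32.6), 72 HPA (27.0) and intact animals (14.1), and neighbours overlapped down to 48 HPA. The level of tr5_12233 in control tails overlapped with that of intact animals at 72 HPA, while the knockdown tails stayed at 25 to 30.5 ppm, above the 13.4 to 14.8 ppm of intact *alx-3(RNAi)* animals.

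*lactb* in controls was highest at 24 HPA (11.7 ppm) and lowest in intact animals (1.64 ppm), a ratio of 7.13. The times between were 6 HPA (8.54 ppm), 72 HPA (6.80), 48 HPA (6.44) and 0.5 HPA (5.57), of which each overlapped with the next, while 24 and 6 HPA were apart, as were 0.5 HPA and intact animals. After knockdown the order was 48 HPA (14.0 ppm), 24 HPA (11.9), 72 HPA (11.6), 6 HPA (5.89), 0.5 HPA (5.18) and intact animals (2.06), with the first 3 overlapping and apart from the rest. In both groups the libraries of intact animals were below those of every tail time point.

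*rapunzel-1* went the other way, with its highest level in intact animals. In controls it stood at 306 ppm there, apart from 0.5 HPA (151 ppm), which overlapped with 48 HPA (125); 24 HPA (112), 6 HPA (107) and 72 HPA (76.7) followed, each overlapping with its neighbour. After knockdown intact animals had 326 ppm and tails 151 to 200 ppm, with all neighbouring tail times overlapping. *pepck* varied least, with a ratio of the highest to the lowest time of 1.46 in controls and 1.47 after knockdown. Its controls were highest at 0.5 HPA (132 ppm), apart from intact animals (107), which overlapped with 48 HPA (101), as did the rest of the order, 72 HPA (97.6), 6 HPA (91.9) and 24 HPA (90.6). In the knockdown group *pepck* was likewise highest at 0.5 HPA (163 ppm) and lowest at 24 HPA (111 ppm).

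Whether the members also vary together within a group was a separate measure, because the choice of members did not use it. Each library was taken as its deviation from the mean of its 3 libraries on the log2 scale, which gives 36 points that share their libraries and group means. The 6 pairs of members and the 4 pairs of *alx-3* with a member were tested by permuting libraries within groups (100000 permutations, two-sided), with Benjamini-Hochberg adjustment over the 10 pairs. The permutation treats the time points as unrelated, but some same-numbered libraries deviated alike across them. For *lactb*, *alx-3(RNAi)* replicate 1 was above its group mean at every time point (0.25 to 0.58). Replicate 2 was below it at every time point, for *lactb* (−0.50 to −0.22) and *pepck* (−0.17 to −0.03). The permutation p can therefore be too small. *lactb* and *pepck* deviated together, with Pearson's r = 0.60 (permutation p = 0.0033, adjusted p = 0.033) and Spearman's rho = 0.59 (permutation p = 0.0028, adjusted p = 0.028), and had the same sign in 24 of 36 libraries. *pepck* and tr5_12233 did so too, with r = 0.52 (permutation p = 0.0078, adjusted p = 0.039) and rho = 0.53 (permutation p = 0.0067, adjusted p = 0.034), and the same sign in 26 of 36 libraries.

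Both relations stayed positive, and whether they passed the threshold depended on the setting. Without the 2 libraries farthest from the median of the first gene, r was 0.54 for *lactb* and *pepck* and 0.50 for *pepck* and tr5_12233, and both had an adjusted permutation p of 0.099. After rescaling r was 0.37 (adjusted permutation p = 0.24) and 0.52 (adjusted permutation p = 0.11). Leaving out each time point in turn gave r of 0.50 to 0.70 for the former pair, the highest without 72 HPA (adjusted permutation p = 0.0066), and 0.44 to 0.67 for the latter, the highest without 6 HPA (adjusted permutation p = 0.0038). As a background, the median r of *pepck* with all 27959 transcripts tested at all 6 time points was 0.06 and the middle 50% of these r lay between −0.13 and 0.28.

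The remaining member pairs were not past the threshold. *rapunzel-1* had the same sign as *pepck* in 24 of 36 libraries, as *lactb* in 24 and as tr5_12233 in 18. *lactb* and tr5_12233 had the same sign in 22. *rapunzel-1* and *pepck* had r = 0.46 (permutation p = 0.033, adjusted p = 0.11) and rho = 0.38 (permutation p = 0.061, adjusted p = 0.16), which came to r = 0.33 without the 2 farthest libraries and to 0.06 on rescaled values. *rapunzel-1* and *lactb* had r = 0.29 (permutation p = 0.051, adjusted p = 0.13) and rho = 0.32 (permutation p = 0.066, adjusted p = 0.16), with r = 0.31 without the 2 farthest. *lactb* and tr5_12233 had r = 0.23 (permutation p = 0.31, adjusted p = 0.62) and rho = 0.30 (permutation p = 0.16, adjusted p = 0.31), with r = 0.23 without the 2 farthest. *rapunzel-1* and tr5_12233 had r = −0.10 (permutation p = 0.54, adjusted p = 0.71) and rho = −0.15 (permutation p = 0.44, adjusted p = 0.64), with r = −0.05 without the 2 farthest and −0.42 on rescaled values. The deviation of *alx-3* itself had r of −0.13 to 0.15 and rho of −0.13 to 0.17 with the members, with adjusted permutation p of 0.71 to 0.89 for r and 0.64 to 0.89 for rho, so no relation was detectable with these libraries. Without the 2 farthest libraries these r were −0.20 to 0.07. After rescaling they were −0.16 with *rapunzel-1*, −0.32 with *lactb*, −0.37 with *pepck* and −0.24 with tr5_12233 (adjusted permutation p of 0.17 to 0.60).

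**Figure D3:**
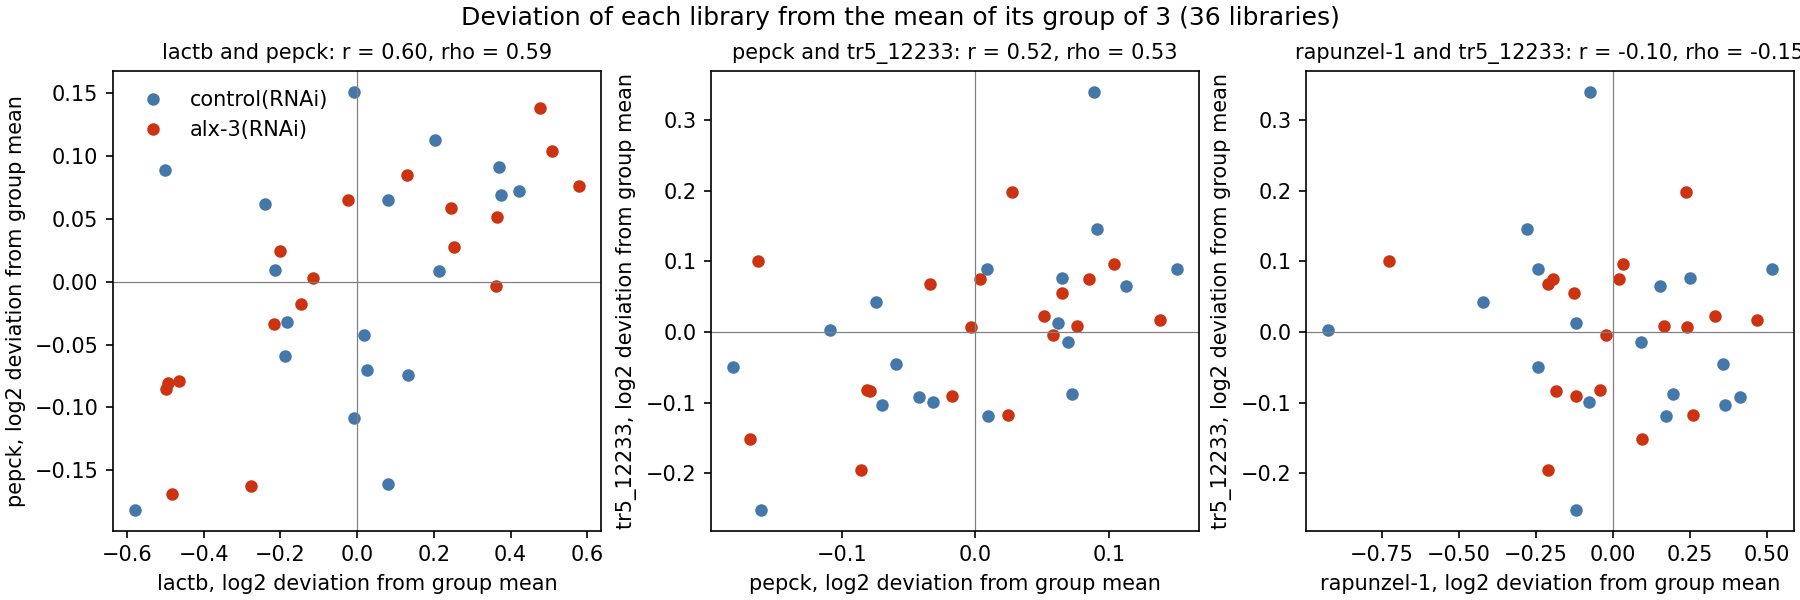
Deviation of each of the 36 libraries from the mean of its group of 3, in log2 normalized count, for 3 pairs of genes (horizontal and vertical axes), blue for *control(RNAi)* and red for *alx-3(RNAi)*. The points of *lactb* and *pepck* (r = 0.60) and of *pepck* and tr5_12233 (r = 0.52) lean along the diagonal with wide scatter, and those of *rapunzel-1* and tr5_12233 (r = −0.10) do not.

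The transcripts with the most similar pattern were found by Pearson's r over the 36 libraries after the mean of each time point was taken off, among the 27959 transcripts tested at all 6 time points. The points share libraries and the knockdown contrast, so r is a description, and r of the deviations within groups is set beside it. For tr5_12233 the closest of all transcripts was *Fzd-d*, a receptor gene of the Frizzled family that binds Wnt proteins (r = 0.96, within groups 0.86). Next among named transcripts came *sp5*, a zinc-finger transcription factor gene known as a target of Wnt signaling (r = 0.96, within groups 0.86), and *wntP-2*, a Wnt ligand gene expressed in the planarian posterior (r = 0.92, within groups 0.74). At 72 HPA the log2 fold changes of *Fzd-d*, *sp5* and *wntP-2* were 0.88 (SE 0.104), 0.88 (SE 0.123) and 0.97 (SE 0.123), beside 1.12 for tr5_12233. At 48 HPA they were 0.74, 0.59 and 0.31 beside 0.72, and at 6 HPA −0.01, −0.14 and −0.04 beside −0.10. Of all 27959 transcripts, 1.13% had an r above 0.7 with tr5_12233.

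For *pepck* the closest transcript was the unnamed SmedASXL_010903 (r = 0.96, within groups 0.74). The closest named transcripts were *KMO-1*, named after kynurenine 3-monooxygenase, an enzyme on the way to ommochrome pigments (r = 0.94, within groups 0.81), *prog2c* of the *prog* genes that mark early epidermal progeny (r = 0.94, within groups 0.55), and pXW0053 (r = 0.93, within groups 0.77). The log2 fold changes of *KMO-1* ran from 0.40 to 0.65, those of *prog2c* from 0.43 to 0.60 and those of pXW0053 from 0.32 to 0.49 over the 6 time points, beside 0.35 to 0.65 for *pepck*. Such likeness to *pepck* was common, since 11.6% of the transcripts had an r above 0.7 with it.

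For *rapunzel-1* the closest transcript, unnamed SmedASXL_018808, followed it almost exactly (r = 0.995, within groups 0.990). Its mean was 1945 in controls and 5047 after knockdown at 72 HPA, and 8104 and 8751 in intact animals. Whether the 2 transcripts share sequence, and so reads, was not analysed here, and the level of *rapunzel-1* is uncertain to that extent. The closest named transcripts were *activin*, a TGF-β family ligand gene (r = 0.89, within groups 0.77), cathepsin_L-1-2, named after a lysosomal protease (r = 0.88, within groups 0.77), and *MyD88-1*, named after the adaptor of Toll-like receptors (r = 0.87, within groups 0.74). At 72 HPA their log2 fold changes were 1.01 (SE 0.0803), 0.32 (SE 0.0649) and 0.59 (SE 0.0756), and 10.1% of transcripts had an r above 0.7 with *rapunzel-1*.

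For *lactb* likeness was weaker and less even. The closest transcript was the unnamed SmedASXL_049390 (r = 0.86, within groups 0.79), and the closest named ones were *Fzd-d* (r = 0.74, within groups 0.38), reticulocalbin-1, named after a calcium-binding protein of the endoplasmic reticulum (r = 0.72, within groups 0.60), and *prog-1e* (r = 0.71, within groups 0.73). At 48 HPA the log2 fold changes of *Fzd-d*, reticulocalbin-1 and *prog-1e* were 0.74, 0.18 and 0.51, beside 1.26 for *lactb*. By the same measure *rapunzel-1* and *pepck* had r = 0.75 with each other, *lactb* and tr5_12233 had r = 0.69, and the other member pairs had r of 0.45 to 0.56.

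**Figure D4:**
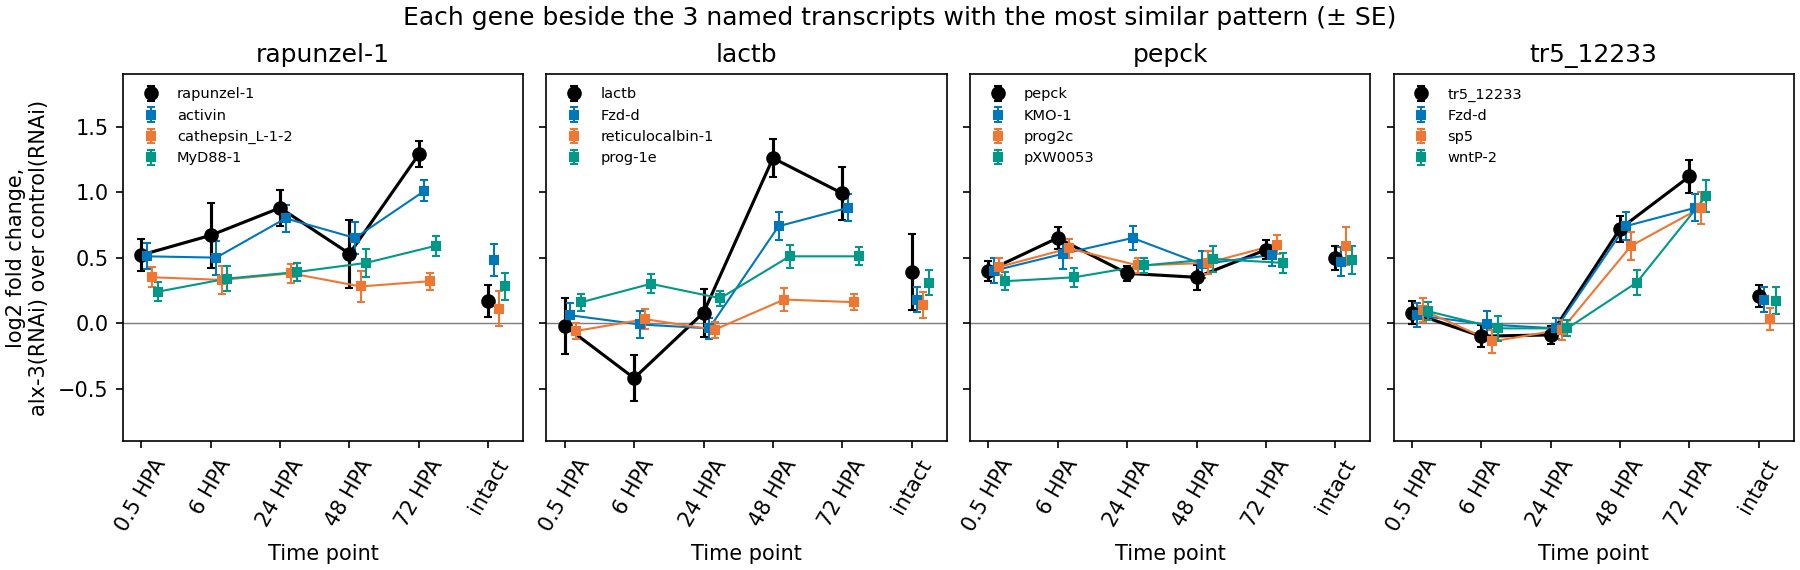
Knockdown effect as log2 fold change ± SE against the controls (vertical axis) at each time point (horizontal axis) for each of the 4 genes (black) and the 3 named transcripts with the most similar pattern (colours); lines join the tail time points. *Fzd-d*, *sp5* and *wntP-2* follow tr5_12233, near 0 up to 24 HPA and at 0.88 to 0.97 at 72 HPA, while the transcripts beside *pepck* stay between 0.32 and 0.65.

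Other genes of the members' pathways were searched for by name in the IDs. The list of sugar and central carbon metabolism found 2 transcripts, AK1 and sds, names that the IDs do not spell out. AK1 fell at 72 HPA, from 275 ± 30.9 to 193 ± 25.6 (log2 fold change −0.51, SE 0.134, limma adjusted p = 0.0205), with every knockdown library below every control. This call ended without control replicate 1 or 3 or *alx-3(RNAi)* replicate 1, and with 1 fit over all 36 libraries. Neither transcript passed the limma test at the other time points. At an unadjusted p under 0.05, 1 was higher and 1 lower at 6, 24 and 48 HPA and in intact animals. At 0.5 HPA there were 0. The log2 fold changes of sds were 0.17, 0.19, 0.14, 0.29, 0.20 and 0.25 from 0.5 HPA to intact animals. Its groups were apart at 6 HPA, 48 HPA and in intact animals. At 48 HPA it was called higher when control replicate 3 was left out, with quantile normalization or in a joint fit of all libraries. Without *alx-3(RNAi)* replicate 2, sds was called higher at 72 HPA and in intact animals, and AK1 lower in the latter. The lowest value of sds over the alternatives at 72 HPA was −0.00. Apart from *pepck*, AK1 and sds, no searched name of this list was found. Only 271 of the 71232 transcripts carry a gene name, so other genes of the *pepck* route could not be followed here. The 2 transcripts of insulin signaling, *AKT* (a kinase) and *INSR* (the insulin receptor), were called at 0 time points by limma, and at an unadjusted p under 0.05 1 of them was lower at 0.5 and at 24 HPA and neither at the other times. Their median log2 fold change was −0.08 to 0.08 over the time points, beside 0.00 to 0.01 for all transcripts. After rescaling, *AKT* was called lower at 0.5 and at 24 HPA. At 0.5 HPA it was also called lower with quantile normalization and without control replicate 1.

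Of 4 transcripts of amino acid, heme and pigment metabolism, 2 were called higher at 0.5 HPA, 3 at each of 6, 24, 48 and 72 HPA and 1 in intact animals, and 0 were called lower. Of all transcripts tested, 1.24%, 1.72%, 4.28%, 2.36%, 10.5% and 0.384% were called higher from 0.5 HPA to intact animals. At 6 HPA the calls of *ALAS* and *KMO-1* ended both with rescaling and with quantile normalization, which left 1 of 3, and the call of *ALAS* in intact animals ended without any of the 3 controls or *alx-3(RNAi)* replicate 1 or 3. The median log2 fold change of the list was 0.42, 0.47, 0.59, 0.54, 0.54 and 0.48 in this order, beside 0.00 to 0.01 for all transcripts. *ALAS*, the first enzyme of heme synthesis, rose from 8083 to 14122 at 48 HPA (log2 fold change 0.81, SE 0.121, limma adjusted p = 0.00144), and *PBGD-1*, a later enzyme of that route, from 18774 to 28777 (0.62, SE 0.112, limma adjusted p = 0.00561, a call that ended without *alx-3(RNAi)* replicate 1). Of 22 nuclear hormone receptor transcripts, a family in which several vertebrate members regulate metabolic enzymes, 1 rose and 3 fell at 24 HPA, 3 rose and 1 fell at 72 HPA, 1 rose in intact animals and 0 were called by limma at 0.5, 6 and 48 HPA. At an unadjusted p under 0.05 there were 3 higher and 2 lower at 0.5 HPA, and 3 higher and 1 lower at 6 and at 48 HPA. After rescaling, *nhr-11*, *nhr-13*, *nhr-14* and *nhr-21* of this family were called lower at 0.5 HPA, and *nhr-13* at 6 HPA. The names searched for mitochondrial, lipid and stress genes found none, so no such gene could be set beside *lactb* here.

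Several markers of cell types also differed between the groups, in either direction and not always at the times when a member did, and their part in the members' values was not tested. Of all transcripts tested, 1.24%, 1.72%, 4.28%, 2.36%, 10.5% and 0.384% were called higher in the order of time points from 0.5 HPA to intact animals. Called lower were 264 of 33258, 204 of 32840, 925 of 30736, 358 of 32366, 876 of 33399 and 163 of 32541. Of 6 parenchyma and pigment transcripts, 3, 3, 4, 3, 5 and 1 rose in that order, and 0 fell. The 6 include *KMO-1*, *ALAS* and *PBGD-1*, already counted under amino acid, heme and pigment metabolism, so these lists are not separate. The summed normalized count of the 6 at 72 HPA was 263884 to 279065 in controls and 324558 to 358351 after knockdown, most of it cathepsin_L-1-2. Without that transcript it was 60638 to 66668 and 75734 to 88674. Of 6 epidermal lineage transcripts, 2, 3, 3, 2, 6 and 2 rose and 0 fell, with sums of 69751 to 75055 and 87158 to 95832 at 72 HPA. At 72 HPA 4 of these 6 calls, those of *AGAT1*, *AGAT2*, *AGAT3* and *prog-1*, ended both with rescaling and with quantile normalization. As deposited, the epidermal sums after knockdown were above all controls at every time point. They were 96195 to 111393 against 75389 to 81407 at 6 HPA, and 69996 to 72855 against 52604 to 63774 in intact animals. The parenchyma and pigment sums without cathepsin_L-1-2 were also above all controls at every time point. Of 9 neoblast transcripts, 2 rose and 1 fell at 72 HPA, and their sums of 229444 to 247182 in controls and 218910 to 243610 after knockdown overlapped. At 48 HPA, where *lactb* and tr5_12233 were called, 1 neoblast transcript rose, and the sums of 213102 to 242128 and 216788 to 244376 overlapped too, as did those of 24 HPA. *pepck* was called at 24 and 72 HPA, where the neoblast sums overlapped, but also at other times. At 0.5 HPA, 6 HPA and in intact animals *pepck* was called too, and the neoblast sums after knockdown were above all controls. They were at 134780 to 143884 against 119554 to 127380, 148703 to 169142 against 132532 to 142901, and 131625 to 142390 against 113971 to 130978. Of the 9 transcripts, 0, 1 and 0 were called higher there, and 5, 7 and 4 had an unadjusted p under 0.05 and a higher value. All marker sums here are as deposited and were not rescaled. The library sums after knockdown were themselves above all controls at 0.5 HPA, with 56.9 to 59 M against 50.9 to 55.6 M. The same was true at 6 HPA (60.3 to 65.2 M against 54.2 to 58.5 M) and in intact animals (60 to 61 M against 53.1 to 59.7 M). The calls of *FoxF1* and cathepsin_L-1-2 at 72 HPA ended with rescaling. The single muscle name found, *titin*, fell at 0.5, 6, 24 and 72 HPA, calls that ended with 1 fit over all 36 libraries, and its range at 72 HPA was 368 to 621 in controls and 168 to 235 after knockdown. In the paper's stainings, *collagen*-positive muscle cells did not differ significantly in proportion between the groups, in tails at 72 HPA or in uninjured animals. Muscle fibres there showed no substantial difference in form or density. The single gut name, NXK2.2, rose at 72 HPA, from 4302 to 4474 in controls to 4922 to 5506 after knockdown (log2 fold change 0.26, SE 0.0637, limma adjusted p = 0.0145), a call that ended with rescaling, with quantile normalization, with 1 fit over all 36 libraries and without any of the 3 controls or *alx-3(RNAi)* replicate 3. The single neuron name, *COE*, fell at 24 HPA, from 866 to 890 in controls to 644 to 741 after knockdown (−0.33, SE 0.0727, limma adjusted p = 0.0188), a call that ended with 1 fit over all 36 libraries and without any of the 3 controls. Pharynx and protonephridia had no name, and no marker found was at 0 in all libraries of a time point.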

How the data were processed

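The signal deposited by the authors is a normalized count per transcript and library. The authors trimmed 50 bp paired reads (TruSeq, polyA selected) with Trimmomatic 0.39, counted with Salmon 1.4.0 on the Smed_ASXL transcriptome, and scaled each time point separately with DESeq2 1.30.1. The header calls the values RPKM, but the mean of 6 libraries equals the deposited mean normalized count of each transcript. Fold changes and p-values that the authors deposited were not used.

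Transcripts with at least 10 normalized counts in at least 3 of 6 libraries were compared within each time point by limma 3.58.1 (R 4.3.3, trend, two-sided) on log2(normalized count + 1). Whole reads were not recovered, so no count model was used. Likeness, permutation tests and figures used Python 3.11.15. The limma step was tested on simulated data. p-values measure the spread between 3 libraries per group. Named genes are the members, *alx-3* (ID from the paper), list genes called with non-overlapping groups (at most 4 per list, largest change first; others are named only where a count of calls or a searched list needs it), and the closest transcripts. The members and lists were chosen with earlier results of these data known; AK1, sds and *INSR* were added to the lists after the IDs were seen. The alternatives tried were other pseudocounts (0.5 or 5), no filter, rescaling to the same total, quantile normalization, 1 fit over all 36 libraries, a replicate block, and leaving out each library, or for correlations each time point or the 2 farthest libraries. Sequences were not analysed.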

Additional observations from a re-analysis of the deposited data

How the results depend on the processing

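The 24 log2 fold changes of the members were recomputed under 13 alternatives each: 302 of 312 values moved by less than 1 SD, 10 by more, and 0 of the called values changed sign. All 10 came from rescaling to the same total or quantile normalization. The counts of called transcripts moved more. From 675 at 0.5 HPA, 1123 at 48 HPA and 288 in intact animals, rescaling to the same total gave 1541, 2490 and 469. Quantile normalization gave 1041 at 0.5 HPA and 1852 at 48 HPA, and 1 fit over all 36 libraries gave 1510 at 6 HPA (from 769), 2644 at 48 HPA and 2219 in intact animals. Within a time point, replicate numbers did not pair *control(RNAi)* with *alx-3(RNAi)* libraries (correlation of same-numbered deviations −0.226 to 0.157), and the replicate block gave 1216 calls at 0.5 HPA and 637 in intact animals. With the block *rapunzel-1* was also called at 0.5 HPA (log2 fold change 0.52), 6 HPA (0.67) and 48 HPA (0.53). Leaving out 1 library gave 193 (without *alx-3(RNAi)* replicate 1) to 2056 (without control replicate 1) calls at 0.5 HPA, with 209 without *alx-3(RNAi)* replicate 3 and 312 without control replicate 3. It gave 314 (control replicate 3) to 1059 (*alx-3(RNAi)* replicate 2) at 6 HPA and 939 (control replicate 2) to 2073 (*alx-3(RNAi)* replicate 2) at 24 HPA (from 2241). It gave 366 (*alx-3(RNAi)* replicate 1) to 1965 (control replicate 3) at 48 HPA, 1911 (*alx-3(RNAi)* replicate 1) to 8117 (*alx-3(RNAi)* replicate 2) at 72 HPA (from 4371), and 79 (control replicate 2) to 5425 (*alx-3(RNAi)* replicate 2) in intact animals. The cause was not tested.

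Of the correlations within groups, *lactb* with *pepck* lost its call with rescaling (r = 0.37), quantile normalization (0.49), without the 2 farthest libraries (0.54) and without 0.5 HPA (0.52), 48 HPA (0.63) or intact animals (0.50). *pepck* with tr5_12233 lost it with rescaling (0.52), quantile normalization (0.55), without the 2 farthest libraries (0.50) and without 0.5 HPA (0.44), 24 HPA (0.50), 48 HPA (0.53), 72 HPA (0.48) or intact animals (0.53). *rapunzel-1* with *pepck* passed without 24 HPA (r = 0.56, adjusted permutation p = 0.048).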
